A study of Homo sapiens with 6 samples.

Results

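The genes described here encode carriers that move amino acids, creatine, taurine, lactate and related small molecules across membranes, in NCI-N87 gastric carcinoma cells with and without knockdown of SCAMP1. They were chosen by name: every protein-coding gene of the families SLC1, SLC3, SLC6, SLC7, SLC16, SLC36, SLC38 and SLC43, with SLC7A11 left out. This gave 72 genes of 19951 protein-coding genes, among 58735 genes in the deposited table. Of the 72, 7 belong to SLC1, 2 to SLC3, 19 to SLC6, 12 to SLC7, 14 to SLC16, 4 to SLC36, 11 to SLC38 and 3 to SLC43.

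NCI-N87 is an established human line of gastric carcinoma cells. One group, shNC, carried a control lentivirus, which is an empty vector per the study's methods, and the other, shScamp1, carried the same vector with 1 shRNA against SCAMP1, a carrier protein of secretory and endocytic membranes. Both groups took up virus with polybrene for 24 h, were selected with puromycin (2 μg/ml) as stable populations, grew in RPMI medium with 10% serum and gave total RNA at about 80% confluence, and each has 3 libraries that the series calls biological replicates. Whether the replicates came from separate infections is not given in the sources used here, so p-values measure the spread between these samples, which may be technical.

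The values are FPKM, that is, fragments corrected for gene length and sequencing depth. The length used is that of all annotated exons of a gene together. Levels therefore compare only roughly between genes, and are understated where the transcripts made are much shorter. The libraries hold 14311769 to 15988700 reads on genes, as recovered from the FPKM values. The knockdown was seen in every library: SCAMP1 was 12.6, 12.1 and 11.5 FPKM in shNC and 1.70, 1.37 and 1.99 FPKM in shScamp1, a log2 fold change of −2.78 (SE 0.14, adjusted p = 0.000248, limma). One library stood apart: mitochondrial genes took 9.21% of the reads in shScamp1 replicate 2 (95% Wilson interval 9.19% to 9.22%, counting error only) and 6.09% to 6.78% in the other 5, so results that rest on that library are given with and without it. The 6 epithelial markers summed to 5421 to 5702 FPKM in shNC and to 9056 to 10009 FPKM in shScamp1, with CDH1, KRT8, KRT18 and KRT19 higher in shScamp1. Most of this difference lay in the 3 keratins. EPCAM and ERBB2 were not called, at log2 fold changes of −0.05 (adjusted p = 0.670, limma) and 0.16 (adjusted p = 0.336, limma). The 5 blood and vessel markers summed to less than 1 FPKM in every library. The 5 fibroblast markers summed to 0.533 to 0.689 FPKM in shNC and 0.487 to 0.773 FPKM in shScamp1. Most of that was COL1A1, on 64 to 111 reads per library, while COL1A2 and DCN had no reads. The part of the keratin difference and of the mitochondrial share in the transporter results was not tested.

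Cells take up most amino acids through carriers that exchange them for other amino acids or couple them to sodium or protons. SLC1A5 and the SLC38 carriers bring in glutamine and other neutral amino acids with sodium. Several SLC7 light chains reach the surface only when bound to the glycoprotein SLC3A2, and SLC7A5 with SLC3A2 trades intracellular glutamine for leucine and other large neutral amino acids. SLC16 carriers include the monocarboxylate transporters MCT1 (SLC16A1) and MCT4 (SLC16A3), which move lactate together with a proton and need basigin (BSG) or embigin (EMB) to reach the surface. Members of SLC36 and SLC38 also lie in the lysosome membrane, where they bear on how mTORC1 senses amino acids. SLC6 carriers use sodium and chloride and serve creatine, taurine, glycine and neurotransmitters.

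A few genes made up most of the summed transporter FPKM. SLC1A5, the neutral amino acid exchanger ASCT2 (ENSG00000105281, chr19:46774883-46788594, GRCh38), had the highest level at 249, 244 and 266 FPKM in shNC and 252, 285 and 249 FPKM in shScamp1. Its exons share 780 of 3332 bases (23.4%) with AC008622.2 on the opposite strand, and the counting is not stated to use strand. SLC1A5 took 33.1% of the FPKM summed over the 72 genes, as the mean of the 6 libraries. SLC7A5 followed with 16.2% and SLC3A2 with 7.23%, so that these 3 genes held 56.5%. The next 9 in order of mean level were SLC38A1, SLC16A5, SLC16A1, SLC7A1, SLC38A2, SLC6A8, SLC16A3, SLC6A6 and SLC38A10, and these 12, all with means of 10 FPKM or more, held 91.6%. Neighbours in this order lie close: the 6 libraries of SLC16A5 ranged from 36.9 to 47.8 FPKM and overlap those of SLC38A1, from 35.9 to 48.2 FPKM. The summed level of all 72 genes was 778 ± 20.2 FPKM in shNC and 778 ± 46.9 FPKM in shScamp1 (SD, n = 3 each).

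**Figure D1:**
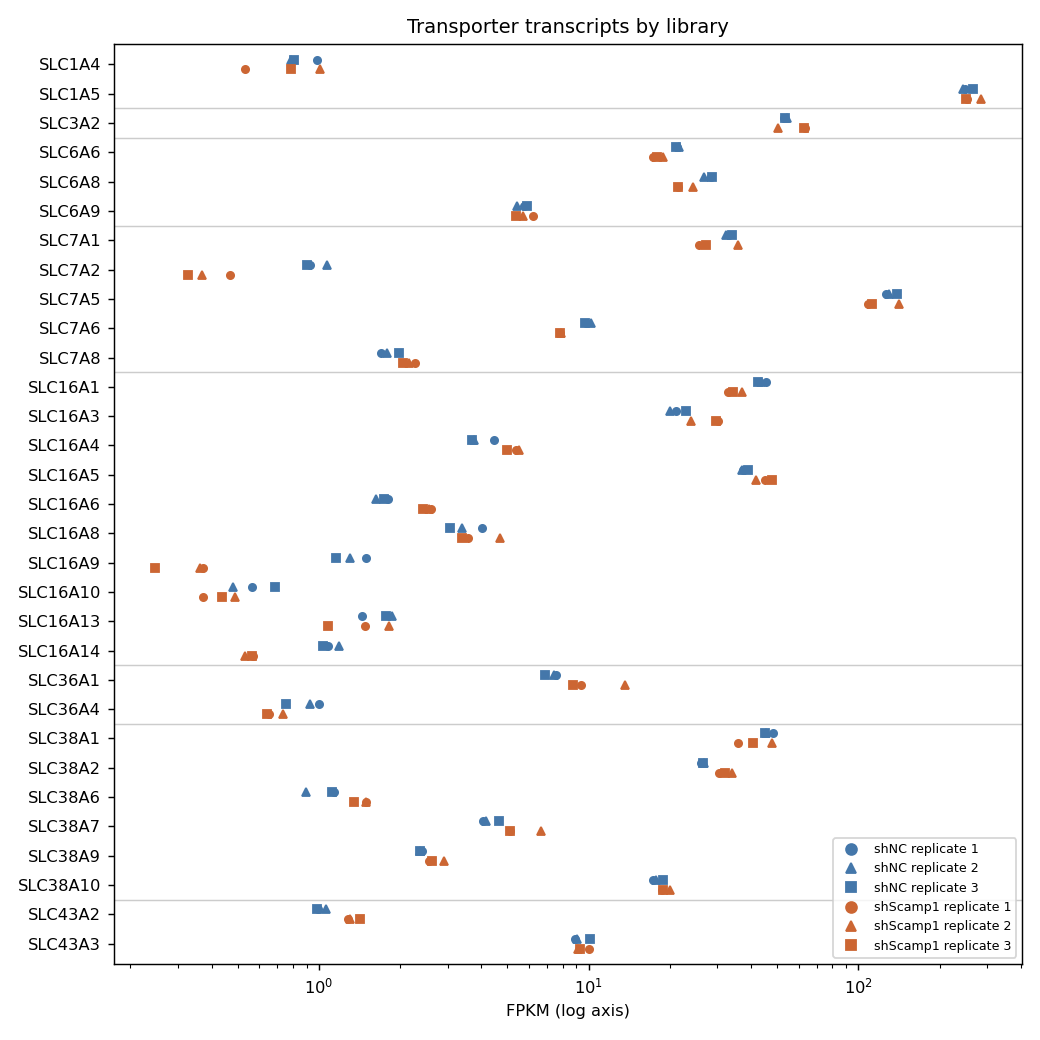
FPKM of the 31 transporter genes tested (x axis, log scale) in each library, grouped by SLC family with grey lines between families; blue marks are the 3 shNC and orange marks the 3 shScamp1 libraries, with 1 shape per replicate number. SLC1A5 lies highest at 244 to 285 FPKM, and the orange triangle of shScamp1 replicate 2 lies apart from the other shScamp1 libraries for SLC7A5, SLC7A1, SLC38A1 and SLC36A1.

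Of the 72 genes, 31 had a mean of at least 0.5 FPKM and were tested. All fold changes are shScamp1 against shNC on the log2(FPKM + 0.1) scale, which understates changes of genes with low values, and a gene is called where limma gave an adjusted p under 0.05 over all 15556 genes tested. By that rule 9 of the 31 transporter genes were called (29.0%), beside 14.0% of all genes tested. SLC38A2, SLC16A4 and SLC16A6 rose, beside 8.82% of all genes called higher. SLC16A9, SLC7A2, SLC16A14, SLC16A1, SLC7A6 and SLC6A8 fell, beside 5.17% of all genes called lower. All 31 are protein-coding, while the genes tested include other types, so these shares do not compare like genes. A fit of protein-coding genes alone called 12 of the 31 and 2626 genes in all. Of the 19951 protein-coding genes, 8422 lay under the filter and did not enter that fit. The fold changes of the 31 centred near 0, with a median of 0.02 beside −0.02 over all genes, and their median size without sign was 0.27 beside 0.25. Only SLC16A9 and SLC7A2 also passed a log2 fold change of 1 in size, both lower, which 3.16% of all genes passed with the adjusted p (2.42% higher and 0.746% lower). In bulk RNA a lower level in each cell and fewer cells that express a gene cannot be told apart.

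The count of calls depended on the libraries. Without shScamp1 replicate 2 it was 17 of 31, beside 27.8% of all genes. The 17 comprise the 9 named above with SLC16A3, SLC16A5, SLC3A2 and SLC36A1 higher and SLC6A6, SLC7A1, SLC7A5 and SLC38A1 lower. These added genes were called in no other fit that left out a library. Without shScamp1 replicate 1 the count was 5, and 1814 of all 15556 genes were called, beside 2177 with all libraries. Without shNC replicate 2, shNC replicate 3 or shScamp1 replicate 3 it was 1, which was SLC16A9 each time. In these fits 808, 858 and 1030 of all genes were called. Without shNC replicate 1 no transporter gene was called by limma, with 13 at an unadjusted p under 0.05, and 831 of all genes were called. Genes at large thus lost calls as well, but kept a larger part of them than the transporter genes did. In the fits with at most 1 transporter gene called, the share of transporter genes called was below that of all genes. The direction of the 9 genes was the same in each of these fits, and the largest adjusted p among them was 0.166, for SLC38A2. In 19 of the 31 genes the 3 values of one group lay beyond the 3 of the other (61.3%, beside 41.4% of all genes tested), of which 11 were higher (20.4% of all genes) and 8 lower (21.0% of all genes) in shScamp1.

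**Figure D2:**
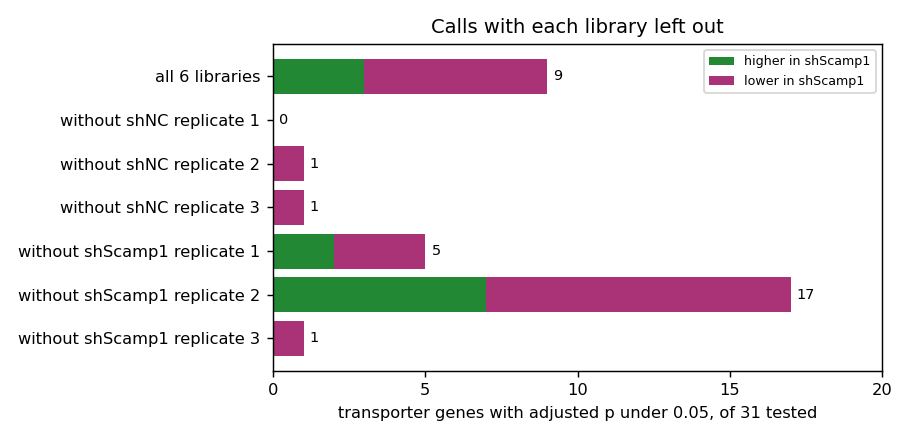
Number of transporter genes with an adjusted p under 0.05 of the 31 tested (x axis) in the fit of all 6 libraries and with each library left out; green is higher and purple lower in shScamp1. The count was 9 with all libraries, 17 without shScamp1 replicate 2 and between 0 and 5 without any other library.

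**Figure D3:**
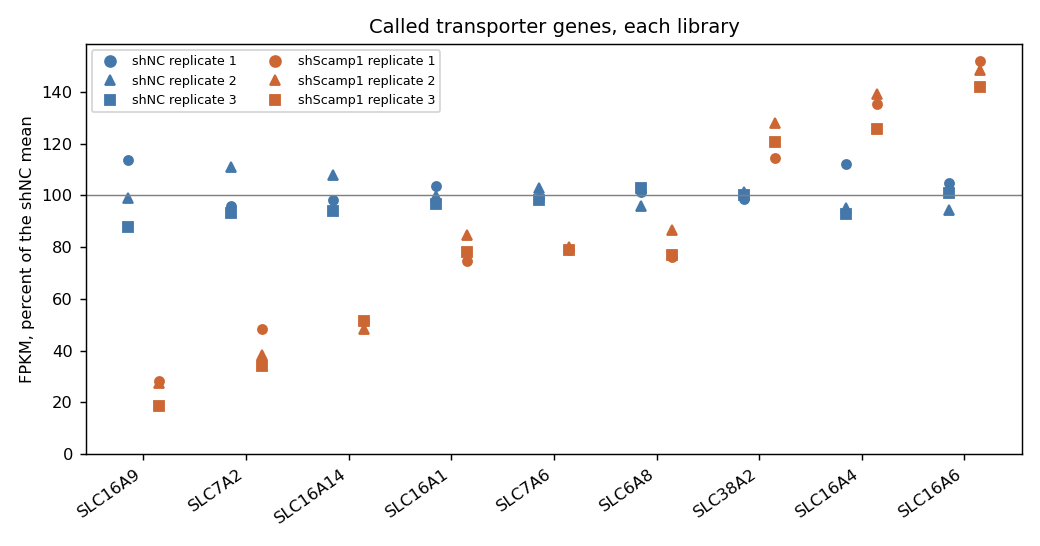
FPKM of the 9 called genes in each library as a percent of the gene's shNC mean (y axis, from 0), with 1 mark per library. In each of the 9 genes the shScamp1 marks lie all above or all below the shNC marks, from SLC16A9, whose mean fell by 75.2%, to SLC16A6, whose mean was 47.3% higher.

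The SLC16 family held 5 of the 9 called genes, from 10 tested of 14, with 2 higher and 3 lower. SLC16A1, which encodes MCT1 and carries lactate in either direction (ENSG00000155380, chr1:112911847-112957013), was 45.3, 43.7 and 42.3 FPKM in shNC and 32.7, 37.1 and 34.2 FPKM in shScamp1. Each shScamp1 library lay below each shNC library, and the mean fell from 43.8 ± 1.52 to 34.7 ± 2.21 FPKM (SD over 3 libraries each). The log2 fold change was −0.34 (SE 0.07, adjusted p = 0.0298, limma). Without shScamp1 replicate 2, the highest of the shScamp1 libraries, it was −0.39 (adjusted p = 0.00297, limma), and with any other library left out the adjusted p was above the threshold, up to 0.133.

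SLC16A3, which encodes MCT4, the lactate exporter of glycolytic cells, moved the other way without passing the test. Its level was 21.1, 19.9 and 22.9 FPKM in shNC and 30.1, 23.9 and 29.6 FPKM in shScamp1. The groups did not overlap, though shScamp1 replicate 2 lay close to the highest shNC library. The log2 fold change was 0.38 (95% interval 0.11 to 0.65, adjusted p = 0.0724, limma), and 0.49 without shScamp1 replicate 2 (adjusted p = 0.00485, limma). With any other library left out SLC16A3 was not called, with an adjusted p of up to 0.224 (limma). SLC16A5 (MCT6), the family member with the highest FPKM, was 37.3, 36.9 and 39.1 FPKM in shNC and 45.1, 41.5 and 47.8 FPKM in shScamp1. It had fewer reads than SLC16A3, 1756 to 2162 beside 2939 to 3955 per library, over a gene length of 3089 beside 8995 bases. Its groups did not overlap either, at a log2 fold change of 0.24 (adjusted p = 0.0797, limma) with all libraries and 0.30 (adjusted p = 0.00698, limma) without shScamp1 replicate 2.

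The largest change of any transporter gene tested was that of SLC16A9 (MCT9), a carrier linked to carnitine and creatine (ENSG00000165449, chr10:59650761-59736002). It was 1.50, 1.30 and 1.15 FPKM in shNC and 0.371, 0.363 and 0.247 FPKM in shScamp1, on 16 to 105 reads per library. No shScamp1 library reached the lowest shNC library, and the mean of 1.32 ± 0.171 FPKM fell to 0.327 ± 0.0694 FPKM (SD over 3 libraries each). The log2 fold change was −1.74 (SE 0.24, 95% interval −2.32 to −1.15, adjusted p = 0.00737, limma). It was called in 5 of the 6 fits that left out a library, and without shNC replicate 1 its adjusted p was 0.0555 (limma). SLC16A14 (MCT14), whose substrates are less well known, lies at chr2:230034974-230068999 and showed the same order of groups. It was 1.08, 1.19 and 1.03 FPKM in shNC and 0.568, 0.532 and 0.567 FPKM in shScamp1, and its log2 fold change was −0.87 (SE 0.18, adjusted p = 0.0261, limma). With any library but shScamp1 replicate 2 left out, the adjusted p was above the threshold, up to 0.122.

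SLC16A6 and SLC16A4 rose. SLC16A6 (MCT7), which exports ketone bodies from the liver, lies at chr17:68267026-68291267. It was 1.80, 1.63 and 1.74 FPKM in shNC and 2.61, 2.55 and 2.44 FPKM in shScamp1, so that the groups were wide apart beside their spread. The log2 fold change was 0.53 (SE 0.09, adjusted p = 0.0146, limma). A pseudogene of SLC16A6, SLC16A6P1, was listed at 0.907 to 1.43 FPKM in shNC and 0.968 to 1.45 FPKM in shScamp1, and how the counting shared reads between near-identical copies is not given in the sources used here. SLC16A4 (MCT5), a member without a settled substrate, lies at chr1:110362848-110391082. It was 4.44, 3.77 and 3.68 FPKM in shNC and 5.36, 5.51 and 4.99 FPKM in shScamp1, which is a log2 fold change of 0.41 (SE 0.10, adjusted p = 0.0405, limma). SLC16A6 was called without shScamp1 replicate 1 or 2, and SLC16A4 without shScamp1 replicate 2, of the 6 fits with a library left out. The remaining family members tested were SLC16A8, SLC16A10 and SLC16A13, whose groups overlapped, with log2 fold changes of 0.14, −0.34 and −0.22.

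**Figure D4:**
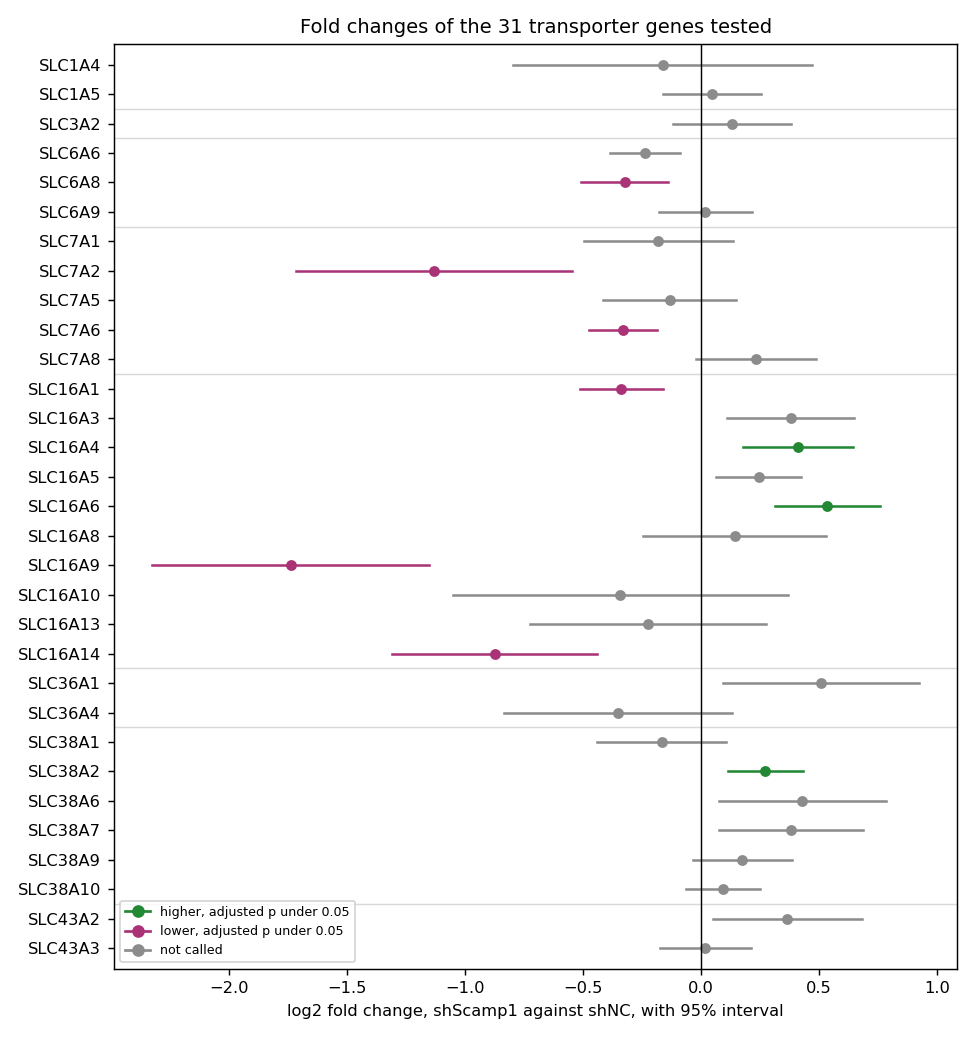
Log2 fold change of shScamp1 against shNC with its 95% interval (x axis) for the 31 transporter genes tested, ordered by family; green and purple mark genes called higher and lower, grey marks genes with an adjusted p of 0.05 or more. SLC16A9 and SLC7A2 lie below −1, and no other gene passes 1 in size.

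Short stretches of promoter are shown for SLC16A9 and SLC7A6, the called genes that hold a searched motif. The windows are RefSeq promoters of GRCh38.p14 from 250 bases before to 50 after a start, which were found for 53 of the 72 genes (81 windows) and for 6 of the 9 called genes, and they were searched on both strands. CACGTG, the E-box that MYC, TFE3 and their relatives bind, was in 14.8% of the transporter windows and 7.26% of all promoter windows. TGACNNNGC, the core of the antioxidant response element, was in 9.88% and 13.3%. TGATGNAA, the element read by ATF4 with C/EBP partners, was in 7.41% and 3.62%. A match describes the letters and does not show binding. The windows are written 5′ to 3′ on the strand named, with the motif in capitals.
SLC16A9 with CACGTG, chr10:59710109-59710138, minus strand: gcttggccagggCACGTGgtgggcggcggg
SLC16A9 with TGACNNNGC, chr10:59709851-59709879, plus strand: gaaccggttgTGACTGCGCgggtggttgg
SLC7A6 with TGACNNNGC, chr16:68264319-68264347, plus strand: gctcgagcccTGACGAGGCagctgggggc
SLC7A6 with TGACNNNGC, chr16:68264487-68264515, plus strand: cggcggcgggTGACGTGGCggggcggggc
Both RefSeq starts used for SLC16A9 lie within the annotated gene, downstream of its 5′ end at 59736002 on the minus strand. Of the called genes with a window, SLC6A8, SLC16A4, SLC16A14 and SLC38A2 held none of these 3 motifs there. The core of the interferon-stimulated response element was searched as well, and was in 2.47% of the transporter windows, 3.57% of all promoter windows and no window of a tested transporter gene.

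In the SLC7 and SLC3 families, 6 of 14 genes were tested and 2 fell, where 5.17% of all genes tested were called lower. SLC7A6 encodes y+LAT2, a light chain that exchanges cationic for neutral amino acids (ENSG00000103064, chr16:68264516-68301823). It was 9.77, 10.2 and 9.71 FPKM in shNC and 7.80, 7.91 and 7.80 FPKM in shScamp1. The shScamp1 libraries agreed closely and lay below shNC throughout, and the log2 fold change was −0.33 (SE 0.06, adjusted p = 0.0169, limma). Its exons share 3371 of 7588 bases (44.4%) with SLC7A6OS on the opposite strand, and the counting is not stated to use strand, so reads of the 2 genes may be mixed. SLC7A6OS itself had a log2 fold change of −0.09 (SE 0.10). SLC7A2 encodes CAT2, which takes up arginine and lysine, and it was 0.925, 1.07 and 0.901 FPKM in shNC and 0.468, 0.370 and 0.329 FPKM in shScamp1, on 38 to 141 reads. Its log2 fold change was −1.13 (SE 0.24, 95% interval −1.72 to −0.55, adjusted p = 0.0299, limma). Both SLC7A6 and SLC7A2 were called in 2 of the 6 fits that left out a library, those without shScamp1 replicate 1 or 2.

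The leucine exchanger itself did not pass the test. SLC7A5 (LAT1) was 126, 129 and 139 FPKM in shNC and 108, 141 and 112 FPKM in shScamp1. Replicates 1 and 3 of shScamp1 lay below every shNC library and replicate 2 above them all, and the log2 fold change was −0.13 (95% interval −0.41 to 0.15, adjusted p = 0.481, limma). Without replicate 2 it was −0.25 (adjusted p = 0.0185, limma), and with any other library left out the adjusted p reached up to 0.764 (limma). A copy of part of the gene, the pseudogene SLC7A5P1, was listed at 5.55 to 6.71 FPKM in shNC and 4.22 to 5.35 FPKM in shScamp1.

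SLC3A2, the heavy chain CD98, was 52.8, 54.3 and 53.5 FPKM in shNC and 63.6, 50.4 and 63.0 FPKM in shScamp1, with replicate 2 the odd one again but on the low side. Its log2 fold change was 0.13 (95% interval −0.12 to 0.38, adjusted p = 0.426, limma), and 0.24 without replicate 2 (adjusted p = 0.00429, limma). The main arginine carrier SLC7A1 (CAT1) was 33.1, 32.2 and 33.9 FPKM in shNC and 25.6, 35.8 and 27.1 FPKM in shScamp1. Its log2 fold change was −0.18 (95% interval −0.50 to 0.13, adjusted p = 0.392, limma) with replicate 2 and −0.33 (adjusted p = 0.00486, limma) without. SLC7A8 (LAT2), another partner of SLC3A2, had higher values in each shScamp1 library at a log2 fold change of 0.23 (95% interval −0.02 to 0.49, adjusted p = 0.195, limma).

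In the SLC38 family 6 of 11 genes were tested, and SLC38A2 rose, where 8.82% of all genes tested were called higher. SLC38A2 encodes SNAT2, a sodium-coupled carrier of small neutral amino acids that cells raise when amino acids run short (ENSG00000134294, chr12:46358189-46372867). It was 26.2, 26.8 and 26.6 FPKM in shNC and 30.3, 33.9 and 31.9 FPKM in shScamp1. All shScamp1 libraries lay above shNC, and the mean of 26.5 ± 0.336 FPKM rose to 32.1 ± 1.79 FPKM (SD over 3 libraries each). The log2 fold change was 0.27 (SE 0.07, adjusted p = 0.0430, limma). It was called in 2 of the 6 fits with a library left out, those without shScamp1 replicate 1 or 2. Its neighbour SLC38A1 (SNAT1) lies 88172 bases away on chromosome 12 and was 48.2, 45.3 and 45.2 FPKM in shNC and 35.9, 47.9 and 40.5 FPKM in shScamp1. The value of shScamp1 replicate 2 fell among the shNC libraries, and the log2 fold change was −0.17 (95% interval −0.44 to 0.11, adjusted p = 0.362, limma), or −0.28 (adjusted p = 0.0266, limma) without that replicate.

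Of the SLC38 members of the lysosome membrane, SLC38A9, which signals arginine to mTORC1, was 2.40, 2.36 and 2.38 FPKM in shNC and 2.57, 2.91 and 2.63 FPKM in shScamp1. SLC38A7, which exports glutamine and asparagine from lysosomes, was 4.04, 4.16 and 4.65 FPKM in shNC and 5.12, 6.68 and 5.12 FPKM in shScamp1. Neither overlapped between groups and neither passed the test, at log2 fold changes of 0.17 (adjusted p = 0.227, limma) and 0.38 (adjusted p = 0.0995, limma). SLC38A6 showed the same order, with a log2 fold change of 0.43 (adjusted p = 0.107, limma), while SLC38A10 overlapped at 0.09.

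The proton-coupled SLC36 carriers had 2 of 4 genes tested and none called by limma or by voom on recovered reads, with SLC36A1 alone at an unadjusted p under 0.05 (limma). SLC36A1 (PAT1), which exports small amino acids from lysosomes, was 7.54, 7.43 and 6.86 FPKM in shNC and 9.35, 13.7 and 8.72 FPKM in shScamp1. Every shScamp1 library was higher, but replicate 2 stood far above the others, and the log2 fold change of 0.51 (95% interval 0.09 to 0.92) had an adjusted p of 0.104 (limma). Without replicate 2 it was smaller, 0.31, with less spread (adjusted p = 0.0194, limma). SLC36A4 was lower in each shScamp1 library at −0.35 (95% interval −0.84 to 0.13, adjusted p = 0.284, limma).

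Of the 19 SLC6 genes 3 were tested. SLC6A8, the creatine transporter (ENSG00000130821, chrX:153688099-153696593), was 28.4, 26.8 and 28.7 FPKM in shNC and 21.4, 24.3 and 21.5 FPKM in shScamp1. The groups did not overlap, and the mean of 28.0 ± 1.02 FPKM fell to 22.4 ± 1.64 FPKM (SD over 3 libraries each). The log2 fold change was −0.32 (SE 0.08, adjusted p = 0.0390, limma). Of the fits with a library left out, it was called in the one without shScamp1 replicate 2 alone, at −0.38 (adjusted p = 0.00286, limma). Its near-identical pseudogene SLC6A10P was listed at 0 in all 6 libraries, and how reads that fit both places were counted is not given in the sources used here. The taurine transporter SLC6A6 was 21.2, 21.6 and 21.0 FPKM in shNC and 17.4, 18.8 and 17.9 FPKM in shScamp1, just outside the threshold at a log2 fold change of −0.24 (95% interval −0.39 to −0.09, adjusted p = 0.0511, limma). The glycine transporter SLC6A9 overlapped, at 5.69 ± 0.252 FPKM in shNC and 5.77 ± 0.411 FPKM in shScamp1 (SD, n = 3 each).

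In SLC1 and SLC43, 4 genes of 10 were tested and none was called by limma, with SLC43A2 alone at an unadjusted p under 0.05 and also called by voom on recovered reads. SLC1A5 had a log2 fold change of 0.05 with a 95% interval of −0.16 to 0.25, so that a change beyond these bounds in either direction lies outside the interval. SLC1A4 (ASCT1), a serine and alanine exchanger, had a wide interval of −0.80 to 0.47 on values of 0.533 to 1.01 FPKM. SLC43A2 (LAT4), an exporter of branched-chain amino acids, was 0.993, 1.06 and 0.983 FPKM in shNC and 1.28, 1.31 and 1.42 FPKM in shScamp1, with a log2 fold change of 0.37 (adjusted p = 0.117, limma). SLC43A3, which carries purine bases, was 9.36 ± 0.672 FPKM in shNC and 9.47 ± 0.480 FPKM in shScamp1 (SD, n = 3 each). Its exons share 1349 of 4517 bases (29.9%) with AP000781.2 on the same strand.

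Summed by family, the SLC6 genes were 56.7 ± 1.00 FPKM in shNC and 47.6 ± 2.10 FPKM in shScamp1 (SD, n = 3 each), a log2 difference of −0.25 without overlap. The SLC16 sum was 117 ± 2.03 FPKM in shNC and 122 ± 3.09 FPKM in shScamp1 (SD, n = 3 each), with a log2 difference of 0.06 and no overlap, although its members moved in both directions. The SLC36 sum was 8.17 ± 0.488 and 11.3 ± 2.77 FPKM, again with no overlap. An exact permutation test of 3 against 3 libraries, two-sided, cannot go below p = 0.1, which these 3 families reached, while the other 5 families gave 0.4 to 0.7.

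Ratios within a library do not depend on how the libraries were scaled. The ratio of SLC16A3 (MCT4) to SLC16A1 (MCT1) was 0.464, 0.457 and 0.542 in shNC and 0.920, 0.644 and 0.865 in shScamp1. The groups did not overlap, the log2 difference was 0.72, and it stayed between 0.62 and 0.88 with any 1 library left out. SLC38A1 to SLC38A2 went from 1.84, 1.69 and 1.70 in shNC to 1.18, 1.41 and 1.27 in shScamp1, also without overlap, at a log2 difference of −0.44. SLC1A5 to SLC38A2 was 9.53, 9.11 and 10.0 in shNC and 8.30, 8.40 and 7.81 in shScamp1, at −0.23. Each of these 3 ratios had the smallest exact permutation p of 0.1 (two-sided), or 0.2 after Benjamini-Hochberg adjustment over the 6 ratios computed.

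SLC7A5 to SLC3A2, the light to the heavy chain, was 2.39, 2.38 and 2.60 in shNC and 1.70, 2.80 and 1.79 in shScamp1. In replicates 1 and 3 of shScamp1 it lay below shNC and in replicate 2 above, and the log2 difference was −0.26 with replicate 2 and −0.49 without (exact permutation p = 0.4 over all libraries). SLC7A6 to SLC7A5 differed by −0.20 and BSG to the sum of SLC16A1 and SLC16A3 by 0.06 (exact permutation p = 0.2 and 0.8).

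**Figure D5:**
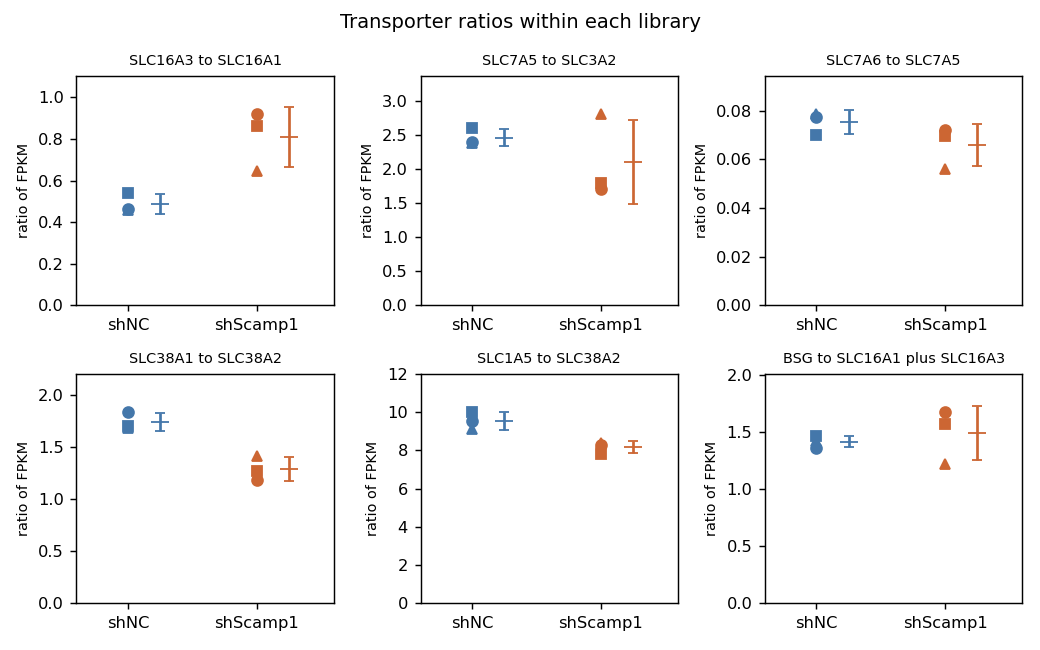
The 6 ratios of FPKM computed within each library (y axes from 0), with circles, triangles and squares for replicates 1, 2 and 3, and the mean with its SD (n = 3) beside each group. SLC16A3 to SLC16A1, SLC38A1 to SLC38A2 and SLC1A5 to SLC38A2 do not overlap between groups, while SLC7A5 to SLC3A2 in shScamp1 replicate 2, at 2.80, lies above all other libraries.

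The 41 genes below the filter had means of at most 0.453 FPKM. Of these, 11 had no reads in any library, which allows up to 3 reads in each, and 22 had at most 3 reads in every library. In 8 of the 41 the groups did not overlap, beside 4.67% of all genes and 11.3% of protein-coding genes below the filter. SLC6A20, a proline carrier, was 0.626, 0.614 and 0.555 FPKM in shNC and 0.257, 0.286 and 0.277 FPKM in shScamp1. The large neutral amino acid carrier SLC43A1 (LAT3) was 0.643, 0.544 and 0.586 FPKM in shNC and 0.233, 0.372 and 0.213 FPKM in shScamp1, and it lies 56954 bases from SLC43A3. SLC6A16, an orphan member, was 0.754, 0.600 and 0.450 FPKM in shNC and 0.247, 0.101 and 0.133 FPKM in shScamp1. The glutamate transporter SLC1A3 and SLC7A7 (y+LAT1) were also lower in each shScamp1 library, and the betaine carrier SLC6A12, SLC6A14 and the glutamine carrier SLC38A3 were higher in each. When the filter was dropped, limma called none of the 30 of these 41 genes that then entered the fit, with 6 at an unadjusted p under 0.05 and a smallest adjusted p of 0.0854, for SLC6A16.

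Genes that work beside the transporters were taken from 5 hand-written lists, in which 16 genes were called with all libraries, 33 without shScamp1 replicate 2 and 3 to 12 without any other library. Over all genes tested, 14.0% were called with all libraries and 27.8% without shScamp1 replicate 2. These shares include genes that are not protein-coding. The lists were chosen with earlier results of these data known, so the shares below describe the lists and test nothing. Of 13 partners of monocarboxylate transport and lactate enzymes, 9 were tested and 1 rose (11.1%, beside 14.0% of all genes called), which was EMB. Embigin RNA was 13.4, 13.1 and 12.7 FPKM in shNC and 16.2, 17.3 and 16.8 FPKM in shScamp1, a log2 fold change of 0.35 (adjusted p = 0.0150, limma). EMB was called in 2 of the 6 fits with a library left out. Basigin (BSG), the partner of MCT1 and MCT4, was 90.5, 90.4 and 95.4 FPKM in shNC and 105, 74.4 and 100.4 FPKM in shScamp1. Its log2 fold change was 0.00 (95% interval −0.33 to 0.34), with shScamp1 replicate 2 on one side of shNC and the other 2 on the other side, and without that replicate it was 0.16 (adjusted p = 0.0399, limma).

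Of 26 amino acid enzymes, 22 were tested, of which 1 rose and 7 fell (36.4% called, beside 14.0% of all genes). This share is no independent result, since the list was chosen with earlier results of these data known. PSAT1, the aminotransferase of serine synthesis, was 22.1, 18.5 and 20.6 FPKM in shNC and 36.5, 30.1 and 34.3 FPKM in shScamp1, and rose by a log2 fold change of 0.72 (adjusted p = 0.00802, limma). The genes that fell most were BCAT2, the mitochondrial branched-chain aminotransferase, from 10.8 ± 0.205 to 6.91 ± 0.985 FPKM, and PYCR1, the last step of proline synthesis, from 29.0 ± 1.05 to 19.9 ± 2.52 FPKM (SD, n = 3 each). ASS1 of arginine synthesis went from 34.2 ± 1.97 to 25.7 ± 2.15 FPKM (SD, n = 3 each), and the others that fell were PSPH, OAT, PHGDH and ALDH18A1. With a library left out, BCAT2 and PYCR1 were called in 3 of the 6 fits, and the rest of those that fell in 1 or 2. PHGDH and PSPH are the first and last enzymes of serine synthesis, on either side of PSAT1. ASNS, asparagine synthetase, was under the filter at 0.212 to 0.430 FPKM.

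Of 23 genes of lysosomal amino acid sensing, 22 were tested and 3 rose (13.6% called, near the 14.0% of all genes). CASTOR2, a relative of the arginine sensor of mTORC1, was 1.85, 1.50 and 1.61 FPKM in shNC and 3.11, 4.34 and 4.36 FPKM in shScamp1 (log2 fold change 1.19, adjusted p = 0.00648, limma). SESN2, the leucine sensor Sestrin2, was 0.895, 0.904 and 0.769 FPKM in shNC and 1.98, 2.16 and 1.82 FPKM in shScamp1 (log2 fold change 1.13, adjusted p = 0.00423, limma). LAMTOR3 of the Ragulator complex rose by 0.31 (adjusted p = 0.0484, limma). PSAT1, CASTOR2 and SESN2 were called in all 6 fits with a library left out, and LAMTOR3 in 1 of them. Of 12 mitochondrial and lysosomal carriers, 10 were tested and 2 fell, the glutamate carrier SLC25A22 by 0.64 on the log2 scale and the ornithine carrier SLC25A15 by 0.36.

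Of 12 transcription factors known to act on transporter genes, 10 were tested and 2 rose. HIF1A, the oxygen-regulated factor that acts on SLC16A3, went from 28.3 ± 1.13 to 40.1 ± 3.79 FPKM, and NFE2L2 from 11.4 ± 0.593 to 14.8 ± 0.771 FPKM (SD, n = 3 each). The log2 fold changes were 0.50 (adjusted p = 0.0145, limma) and 0.38 (adjusted p = 0.0210, limma). With a library left out, HIF1A was called in 2 and NFE2L2 in 1 of the 6 fits. ATF4, the factor of the amino acid response, was 107, 108 and 115 FPKM in shNC and 100.1, 50.7 and 95.6 FPKM in shScamp1, where replicate 2 lay far below the rest (log2 fold change −0.49, adjusted p = 0.256, limma). Without that replicate the log2 fold change of ATF4 was −0.17 (adjusted p = 0.0451, limma). In 7 of the 10 factors the groups did not overlap (70.0%, beside 41.4% of all genes tested), 3 higher and 4 lower. The lower ones include MYC at −0.47 (adjusted p = 0.0861, limma) and CEBPB at −0.53 (adjusted p = 0.0819, limma), neither called. RNA levels of a factor do not give its activity.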

How the data were processed

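The authors deposited a table of gene-level FPKM for 3 shNC and 3 shScamp1 libraries. The submitters' processing notes name hg38, HISAT2 2.0.5, featureCounts 1.5.0-p3 and DESeq2 1.20.0. Gene coordinates equalled GENCODE 29 for all 58735 genes. Multiplied by gene length, 100% of values were whole multiples of 1 step per library (tolerance 0.01), and the steps followed size factors of 0.914 to 1.11. The FPKM therefore include a scaling between libraries. Reads recovered this way gave depth (14311769 to 15988700) and an alternative fit with voom. That depth limits mainly genes with few reads, and the called genes had at least 16 reads in each library.

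Values were analysed as log2(FPKM + 0.1) with limma 3.58.1 (lmFit, eBayes with trend) in R 4.3.3, for the 15556 genes whose mean reached 0.5 FPKM, two-sided, with Benjamini-Hochberg adjustment over all of them. Family sums and ratios were compared by exact permutation over libraries. The fit was also run on simulated reads with known changes, larger than those of most called transporter genes. No library was made to stand apart there, so small changes and an odd library were not covered. The genes named are the called members with their values, members in the ratios, the top member of each family, SCAMP1, up to 4 called genes per list, BSG, ATF4 and ASNS. SLC16A9, SLC7A2 and SLC16A14, whose means lie under 1 FPKM, and all further genes in the text were picked once their values were known. The members and lists were chosen with earlier results of these data known. Alternatives changed the pseudocount, filter, scaling, trend, gene types, test, replicate block and libraries.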

Additional observations from a re-analysis of the deposited data

How the results depend on the processing

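With 3 libraries a group, the count of calls depended on which library was left out, for transporter genes and for all genes. Against 9 transporter genes and 2177 genes in all called by limma, leaving out each library in turn gave 0 to 17 transporter genes and 808 to 4330 genes. The lowest transporter count, without shNC replicate 1, had 13 at an unadjusted p under 0.05. Transporter genes called and past a log2 fold change of 1 numbered 2, and 0 to 2 with a library left out, and the list genes called numbered 16, and 3 to 33. Replicate numbers did not pair the libraries: the deviations of same-numbered libraries correlated at −0.0351, 0.0325 and 0.0668. With the replicate number as a block, 1 transporter gene (SLC16A9), 958 genes in all and 5 list genes were called, and 1 transporter gene was called and past the fold. A pseudocount of 1 left 248 genes past the fold, from 492, and no transporter gene past it (10 transporter genes called by limma without the fold rule, 9 shared with the main calls). A filter at a mean of 1 FPKM also left no transporter gene past the fold, with 7 called. Without a filter 10 list genes and 6 transporter genes were called.

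The split of transporter calls into higher and lower was 3 and 6, but 4 and 4 after quantile scaling and 2 and 7 with the same FPKM sum per library. Protein-coding genes alone gave 12 calls and voom on recovered reads 11, each with all 9 of the main calls. Among the transporter genes tested and the list genes described by name, MYC and CEBPB aside, the sign turned under some alternative for SLC1A4, SLC1A5, SLC6A9, SLC16A8, SLC43A3 and BSG. With the same FPKM sum, SLC6A9 was −0.0089, SLC43A3 −0.0084 and BSG −0.023. With a library left out, SLC1A4 ranged from −0.35 to 0.054, SLC1A5 from −0.014 to 0.084, SLC6A9 from −0.035 to 0.066, SLC16A8 from −4.71e-05 to 0.25, SLC43A3 from −0.022 to 0.076 and BSG from −0.092 to 0.16. Family sums and ratios moved by less than the spread between replicates under every alternative tried for them, and SCAMP1 was called in every fit.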
